A study of Homo sapiens with 8 samples.

Results

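The genes described here make, cleave or bind hyaluronan, the long sugar chain of the extracellular matrix. They number 10 of the 25369 genes in the deposited table of LX-2 cells and comprise the hyaluronan synthases HAS1, HAS2 and HAS3, the antisense RNA HAS2-AS1, the hyaluronidases HYAL1, HYAL2 and HYAL3, the receptor CD44, the secreted binding protein TNFAIP6 (also called TSG-6) and the proteoglycan VCAN (versican). The rows were chosen by gene name, with the higher HAS2 and VCAN expression on the stiff matrix already known, so values of stiff against soft matrix are given below as a description and without a test. The 4-day cultures were tested against the 2-day cultures on each matrix. The choice was not made on a stated difference between days, but earlier results of these data were known.

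Hyaluronan is built at the plasma membrane, where each synthase joins glucuronic acid and N-acetylglucosamine from UDP-sugars in the cytosol and extrudes the growing chain. Hyaluronidases cut the chain into fragments, CD44 anchors it at the cell surface, and versican binds it in the pericellular matrix. In the liver, hyaluronan is made mainly by hepatic stellate cells, and its deposition increases in fibrosis.

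RNA-seq was performed on LX-2, an immortalized human hepatic stellate cell line, wild type by its label. The cells were seeded on polyacrylamide hydrogels of 2 kPa (soft matrix) or 40 kPa (stiff matrix) coated with fibronectin and were cultured for 2 or 4 days, giving 4 conditions of 2 libraries each and 8 libraries in all. A single cell line was used, and culture time moves together with everything else that changes in a dish between harvests, such as cell density, so that these cannot be told apart. RNA was pooled over the cells of a dish, so a smaller number of expressing cells and less RNA per cell cannot be told apart either.

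Library totals lay between 19955975 and 27263935 counts. Of 12 stellate and mesenchymal markers, 8 had a mean of at least 1 FPKM, led by VIM and TAGLN. FPKM are here fragments scaled to transcript length and to a size factor of each library. The summed level of the 12 was higher at 4 days, from 1443 to 1556 FPKM at 2 days to 2498 to 2854 FPKM at 4 days on the soft matrix and from 1747 to 1887 FPKM to 2572 to 3874 FPKM on the stiff matrix, and its part in the changes over time below was not tested. VIM carried this sum, with means of 943 and 2019 FPKM on the soft and 1246 and 2398 FPKM on the stiff matrix at 2 and 4 days. COL1A1 went the other way, with means of 160 and 114 FPKM on the soft and 147 and 98.3 FPKM on the stiff matrix, and mean PDGFRB was also lower at 4 days on both. DES and LRAT were too low to be tested. Summed endothelial markers stayed between 0.101 and 0.205 FPKM, hepatocyte markers between 1.24 and 2.98 FPKM, leukocyte markers between 1.88 and 4.13 FPKM and epithelial markers, nearly all KRT7, between 5.80 and 11.4 FPKM. The 2 stiff 4-day libraries stand apart from each other: the SD of log2 CPM (counts scaled to library size, normalized by edgeR's TMM method) between replicates was 0.532 in that condition and 0.198 to 0.299 in the others. For the 9 genes that could be tested, changes over time on the stiff matrix and 4-day differences between the matrices are therefore also given without each of them. Such a fit leaves 1 stiff 4-day library, so only its log2 fold changes are given. Below, paired values give replicate 1 first, and the comparisons over time and between matrices share the same 8 libraries.

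Per length of transcript, CD44 was the most abundant gene of the group in every condition, followed by HYAL2 and HAS2, and the remaining genes lay below them. On the FPKM scale, mean CD44 was 97.6 ± 1.26 on the soft and 116 ± 2.12 on the stiff matrix at 2 days, and 140 ± 3.94 and 130 ± 9.07 at 4 days (SD, n = 2 each). HYAL2 ranked next in 3 of the 4 conditions, with 26.4 ± 3.27 FPKM on the soft matrix at 2 days. In the stiff 4-day libraries the order was exchanged, with mean HAS2 at 17.3 ± 5.13 FPKM and mean HYAL2 at 14.4 ± 1.92 FPKM (SD, n = 2), and the libraries of these neighbours overlapped. HYAL3 came next throughout, at means of 2.57 to 3.73 FPKM, and VCAN lay between 0.723 and 1.39 FPKM over the 8 libraries. HAS1, HAS3, HAS2-AS1 and HYAL1 stayed under 0.5 FPKM in every library. HAS3 and HAS2-AS1 overlapped in every condition, so their order is not resolved.

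**Figure D1:**
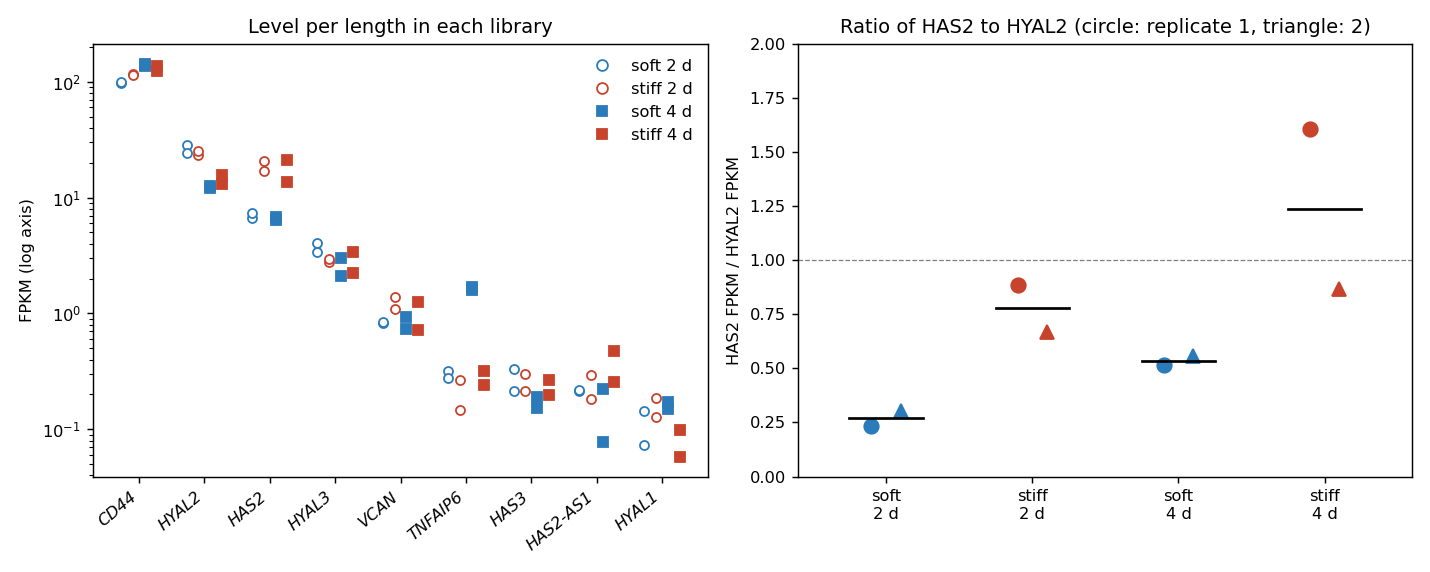
Left, FPKM of 9 genes in each library on a log axis, by matrix and day; HAS1 is left out because 1 of its libraries holds 0 counts. Right, HAS2 FPKM divided by HYAL2 FPKM in each library, with the mean of the 2 libraries as a line and a dashed line at equal levels. The ratio exceeds 1 only in stiff 4-day replicate 1, at 1.61.

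HAS2 was the main synthase transcript and supplied 95.1% to 98.7% of the summed FPKM of the 3 synthases in each library. The gene lies on chromosome 8 (GRCh37) from 122624356 to 122653680 on the minus strand. Its expression was 22.0 and 24.0 CPM in the soft and 68.0 and 55.3 CPM in the stiff libraries at 2 days. At 4 days it was 21.2 and 22.6 CPM on the soft and 68.9 and 45.3 CPM on the stiff matrix. Every stiff library thus lay above every soft library, at either day. As a description, the fitted log2 fold change of stiff against soft was 1.42 ± 0.215 (standard error, SE) at 2 days and 1.38 ± 0.216 (SE) at 4 days, and the latter became 1.06 without stiff replicate 1 and 1.66 without stiff replicate 2.

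Between 2 and 4 days, HAS2 did not pass the test on either matrix in the fit of all 8 libraries. On the soft matrix the log2 fold change was -0.07 ± 0.214 (SE), with an adjusted p of 0.826 (quasi-likelihood test of edgeR, Benjamini-Hochberg over all tested genes). On the stiff matrix it was -0.11 ± 0.210 (SE, adjusted p = 0.722, edgeR). The value on the stiff matrix depends on the stiff 4-day libraries: without replicate 1 it was -0.45, and without replicate 2 it was 0.15. The HAS2 fold change of stiff against soft at 4 days less that at 2 days was -0.04 on the log2 scale (SE 0.30, adjusted p = 0.9997, edgeR).

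**Figure D2:**
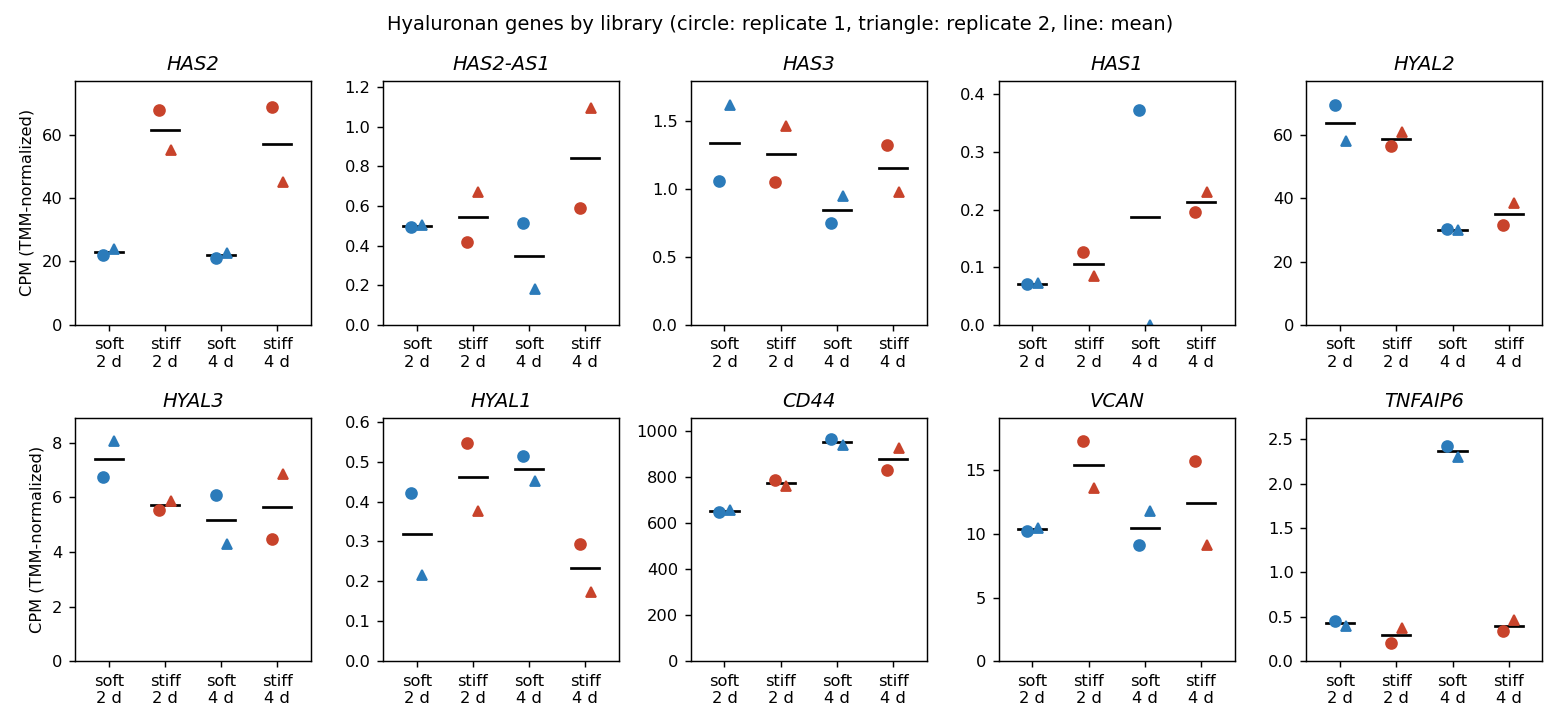
TMM-normalized CPM of the 10 genes, 1 panel per gene with its own axis from 0, in the 4 conditions (soft and stiff matrix at 2 and 4 days). Circles are replicate 1, triangles replicate 2 and lines the mean of the 2 libraries. HAS2 is higher in every stiff library than in any soft library, HYAL2 is lower in every 4-day library than in any 2-day library, and TNFAIP6 stands out in the 2 soft 4-day libraries at 2.43 and 2.30 CPM.

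HAS2-AS1, a long non-coding RNA on the opposite strand of HAS2 (chromosome 8, 122651533 to 123006424), was counted at 4 to 19 reads per library. It had 0.493 and 0.504 CPM on the soft and 0.420 and 0.670 CPM on the stiff matrix at 2 days. At 4 days it had 0.513 and 0.180 CPM on the soft and 0.589 and 1.09 CPM on the stiff matrix, with the higher stiff value in replicate 2, whereas HAS2 was higher in stiff replicate 1. The antisense RNA passed no test between days, with log2 fold changes of -0.52 ± 0.598 (SE) on the soft and 0.60 ± 0.543 (SE) on the stiff matrix and edgeR adjusted p of 0.544 and 0.435. As a description, its log2 fold change of stiff against soft was 0.13 ± 0.549 (SE) at 2 days and 1.26 ± 0.589 (SE) at 4 days. Without stiff 4-day replicate 1 or 2 the change over time on the stiff matrix was 1.0 or 0.10 and the 4-day difference between the matrices 1.66 or 0.77, and leaving out any single library moved the latter between 0.69 and 2.18. Its exons share 251 bases with the 4240 exonic bases of HAS2. The strand setting of the read counting is not given in the sources used here, so reads from the shared stretch cannot be told apart.

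HAS3, which makes hyaluronan chains as HAS2 does, had 1.06 and 1.62 CPM on the soft and 1.05 and 1.47 CPM on the stiff matrix at 2 days, then 0.747 and 0.947 CPM on the soft and 1.33 and 0.979 CPM on the stiff matrix at 4 days. Both soft 4-day libraries lay below both soft 2-day libraries, but the log2 fold change of -0.65 ± 0.375 (SE) did not pass (adjusted p = 0.226, edgeR), and neither did that on the stiff matrix (-0.12, adjusted p = 0.836). Stiff against soft, HAS3 differed by -0.09 ± 0.355 (SE) at 2 days and 0.45 ± 0.394 (SE) at 4 days on the log2 scale, as a description. Without stiff 4-day replicate 1 or 2 the HAS3 change on the stiff matrix was -0.36 or 0.07 and the 4-day difference 0.22 or 0.65. HAS1 was counted at 0 to 8 reads per library, too few to be tested. A HAS1 count of 0 occurred in 1 library, soft 4-day replicate 2, while replicate 1 of the same condition held the 8 reads.

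HYAL2 fell between 2 and 4 days on both matrices. HYAL2 encodes the hyaluronidase that is held at the cell surface by a lipid anchor and cuts long hyaluronan into intermediate fragments. It had 69.5 and 58.1 CPM on the soft and 56.5 and 60.9 CPM on the stiff matrix at 2 days. At 4 days it had 30.3 and 30.0 CPM on the soft and 31.6 and 38.5 CPM on the stiff matrix. All 4 libraries of the 4-day cultures lay below all 4 of the 2-day cultures. On the soft matrix its level became 2.12-fold lower (log2 fold change -1.08 ± 0.157, SE, adjusted p = 0.00388, edgeR). On stiff hydrogels it became 1.68-fold lower (log2 fold change -0.74 ± 0.156, SE, adjusted p = 0.0129, edgeR).

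The difference between these changes did not pass the test: it was 0.34 on the log2 scale (SE 0.220, adjusted p = 0.9997, edgeR). The call on the soft matrix was lost without soft 2-day replicate 1 (log2 fold change -0.95, adjusted p = 0.0544). The call on the stiff matrix was lost without stiff 2-day replicate 1 (log2 fold change -0.80, adjusted p = 0.0737), without stiff 2-day replicate 2 (log2 fold change -0.69, adjusted p = 0.119) and in a fit of these 4 libraries alone (log2 fold change -0.74, adjusted p = 0.0880, all edgeR). Without stiff 4-day replicate 1 or 2 the HYAL2 change on the stiff matrix was -0.61 or -0.90. As a description, HYAL2 differed between stiff and soft matrix by -0.12 ± 0.154 (SE) at 2 days and 0.22 ± 0.157 (SE) at 4 days on the log2 scale, the latter 0.36 or 0.08 without stiff 4-day replicate 1 or 2.

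HYAL2 lies on chromosome 3 (GRCh37) from 50355221 to 50360213 on the minus strand, and 509 of its 4421 exonic bases are shared with TUSC2 on the same strand. The 250 bases upstream of its RefSeq start are shown because HYAL2 was the gene called on both matrices. RefSeq promoters on GRCh38.p14 were matched for 8 of the 10 genes and not for HAS2 and HAS2-AS1. They gave 9 windows, 2 of them for HYAL3. The windows were searched for the AP-1 letters TGAGTCA, which read TGACTCA on the other strand, since AP-1 is the factor named in the title of the study, and for the TEAD letters GGAATG, which read CATTCC. A TEAD match can share its last letters TG with an AP-1 match, but no window here held both. Of 35116 such windows, 4.20% hold the AP-1 letters and 11.9% the TEAD letters. The HYAL2 window (chr3:50322746-50322995, minus strand) holds no AP-1 letters and 1 match of the TEAD letters, in capitals, whose first base lies at position -38 from the start. The TEAD letters also occur in 1 of the HYAL3 windows, at position -194. A match is a run of letters and not a measured site.
HYAL2: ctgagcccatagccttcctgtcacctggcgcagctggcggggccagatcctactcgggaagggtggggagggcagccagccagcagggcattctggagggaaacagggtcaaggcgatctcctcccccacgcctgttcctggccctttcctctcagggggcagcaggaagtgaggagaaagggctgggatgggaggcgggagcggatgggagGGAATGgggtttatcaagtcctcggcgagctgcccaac

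The other hyaluronidases did not pass the test in the fit of all 8 libraries. HYAL3, a hyaluronidase relative encoded near HYAL2 on chromosome 3 (50330262 to 50336836), was at 6.76 and 8.06 CPM on the soft and 5.54 and 5.86 CPM on the stiff matrix at 2 days. The 4-day values were 6.07 and 4.28 CPM on the soft and 4.47 and 6.85 CPM on the stiff matrix. On the soft matrix both 4-day libraries lay below both 2-day libraries, with a change of -0.52 ± 0.259 on the log2 scale (SE, adjusted p = 0.172, edgeR), while on the stiff matrix the days overlapped and the log2 fold change was -0.02 (adjusted p = 0.971). Without stiff 4-day replicate 1 or 2 the soft HYAL3 value was -0.53 or -0.54, and these libraries do not enter the difference itself. A fit of the soft libraries alone called HYAL3 (log2 fold change -0.53, adjusted p = 0.0234, edgeR), where 50.7% of all tested genes were called. HYAL1, the lysosomal hyaluronidase that degrades fragments taken up by the cell, was counted at 3 to 13 reads per library. It had 0.422 and 0.216 CPM on the soft and 0.546 and 0.377 CPM on the stiff matrix at 2 days, and 0.513 and 0.451 CPM on the soft and 0.295 and 0.173 CPM on the stiff matrix at 4 days. The HYAL1 log2 fold change from 2 to 4 days was 0.58 ± 0.517 (SE, adjusted p = 0.428) on the soft and -0.94 ± 0.582 (SE, adjusted p = 0.258) on the stiff matrix (edgeR). HYAL1 reached the level required of a tested gene, 0.443 CPM before TMM scaling in at least 2 libraries, in 3 libraries. Of these, 2 were the soft 4-day ones, the condition with its highest mean, so its p is not independent of that entry. As a description, the log2 fold changes of stiff against soft at 2 and 4 days were -0.38 ± 0.256 and 0.12 ± 0.267 for HYAL3 and 0.52 ± 0.514 and -1.0 ± 0.585 for HYAL1 (SE). Without stiff 4-day replicate 1 or 2, the change on the stiff matrix was 0.26 or -0.36 for HYAL3 and -1.39 or -0.65 for HYAL1. The 4-day difference in these fits was 0.42 or -0.20 for HYAL3 and -1.44 or -0.69 for HYAL1. HYAL2 supplied 79.6% to 89.1% of the summed FPKM of the 3 hyaluronidases per library.

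The ratio of HAS2 to HYAL2, both in FPKM, compares the main synthase and the main hyaluronidase transcript. At 2 days it was 0.234 and 0.305 in the soft and 0.887 and 0.669 in the stiff libraries. At 4 days it was 0.515 and 0.556 in the soft and 1.61 and 0.867 in the stiff libraries. On the soft matrix both 4-day ratios lay above both 2-day ratios, while on the stiff matrix the ratio of 4-day replicate 2 lay between those of the 2-day libraries.

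CD44, the main cell surface receptor of hyaluronan, rose between 2 and 4 days on the soft matrix. The gene lies on chromosome 11 (GRCh37) from 35160429 to 35253949 on the plus strand. It had 648 and 658 CPM on the soft and 785 and 763 CPM on the stiff matrix at 2 days. After 4 days it had 963 and 939 CPM on the soft and 832 and 924 CPM on the stiff matrix. The order of the matrices was thus exchanged: both stiff libraries lay above both soft libraries at 2 days and below them at 4 days. As a description, the log2 fold change of stiff against soft was 0.24 ± 0.131 (SE) at 2 days and -0.12 ± 0.131 (SE) at 4 days, the latter -0.03 or -0.18 without stiff 4-day replicate 1 or 2.

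The log2 fold change of CD44 from 2 to 4 days was 0.54 ± 0.132 (SE) on the soft matrix, a 1.46-fold higher level with an edgeR adjusted p of 0.0207. On the stiff matrix it was 0.18 ± 0.131 (SE, adjusted p = 0.329, edgeR), and 0.25 or 0.10 without stiff 4-day replicate 1 or 2. The CD44 difference between these changes was -0.36 ± 0.186 (SE) with an adjusted p of 0.9997 (edgeR), so the rise is not shown to differ between the matrices. The call on the soft matrix was lost when any library other than the stiff 4-day ones was left out: the adjusted p was 0.154 without soft 2-day replicate 1, 0.109 without soft 2-day replicate 2, 0.149 without soft 4-day replicate 1, 0.110 without soft 4-day replicate 2 and 0.0615 without either stiff 2-day library. The log2 fold change itself stayed between 0.50 and 0.56 in these fits.

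The CD44 window upstream of the RefSeq start (GRCh38.p14, chr11:35138921-35139170, plus strand) is shown for comparison with that of TNFAIP6 below, since both genes were called higher at 4 days on the soft matrix. It holds no match of either motif.
CD44: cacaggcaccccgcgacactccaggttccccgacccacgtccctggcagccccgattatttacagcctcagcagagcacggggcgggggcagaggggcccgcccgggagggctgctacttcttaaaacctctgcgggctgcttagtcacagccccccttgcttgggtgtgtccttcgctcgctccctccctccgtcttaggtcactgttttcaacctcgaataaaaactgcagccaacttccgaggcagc

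TNFAIP6, a secreted protein that binds hyaluronan and transfers protein heavy chains onto it, had its highest counts in the soft 4-day libraries. It was counted at 13 and 11 reads in the soft and 5 and 9 reads in the stiff libraries at 2 days, and at 52 and 51 reads in the soft and 7 and 8 reads in the stiff libraries at 4 days. In CPM, the soft libraries held 0.458 and 0.396 at 2 days and 2.43 and 2.30 at 4 days, and the 4 stiff libraries held 0.210 to 0.461. The 2 soft 4-day libraries thus stood above all others, and the other 6 lay between 0.210 and 0.461 CPM. The fitted 4-day level on the soft matrix was 5.48-fold the 2-day level (log2 fold change 2.45 ± 0.357, SE, adjusted p = 0.00391, edgeR). TNFAIP6 on the stiff matrix had a log2 fold change of 0.44 ± 0.483 (SE, adjusted p = 0.549, edgeR), and 0.64 or 0.22 without stiff 4-day replicate 1 or 2.

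TNFAIP6 reached the level required of a tested gene, 0.443 CPM before TMM scaling in at least 2 libraries, in 3 libraries, of which 2 were the soft 4-day ones. It therefore entered the test only through the condition in which it is high, and its p is not independent of that entry. Without soft 2-day replicate 1 its adjusted p was 0.0588 at a log2 fold change of 2.56. The difference between the TNFAIP6 changes on the stiff and the soft matrix was -2.02 on the log2 scale (SE 0.611), with an unadjusted p of 0.0111 and an adjusted p of 0.9997 (edgeR). A difference between the matrices in its change over time was therefore not called. As a description, the log2 fold change of stiff against soft was -0.53 ± 0.448 (SE) at 2 days and -2.55 ± 0.384 (SE) at 4 days, the latter -2.34 or -2.75 without stiff 4-day replicate 1 or 2.

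TNFAIP6 lies on chromosome 2 (GRCh37) from 152214106 to 152236560 on the plus strand. Its window (GRCh38.p14, chr2:151357342-151357591, plus strand) was the only one of the 9 windows matched to these genes with the AP-1 letters. The match, in capitals, has its first base at position -129 from the RefSeq start.
TNFAIP6: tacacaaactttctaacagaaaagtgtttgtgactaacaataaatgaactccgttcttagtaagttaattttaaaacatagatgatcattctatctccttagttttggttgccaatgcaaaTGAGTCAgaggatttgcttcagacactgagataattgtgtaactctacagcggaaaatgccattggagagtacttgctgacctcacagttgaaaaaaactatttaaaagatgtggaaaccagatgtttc

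VCAN, a large proteoglycan whose head domain binds hyaluronan, lies on chromosome 5 (GRCh37) from 82767437 to 82878122 on the plus strand. It had 10.2 and 10.5 CPM on the soft and 17.3 and 13.6 CPM on the stiff matrix at 2 days. After 4 days VCAN had 9.15 and 11.8 CPM on the soft and 15.7 and 9.10 CPM on the stiff matrix. At 2 days both stiff libraries lay above both soft libraries, and at 4 days the matrices overlapped, with stiff replicate 2 the lowest VCAN library of all 8. As a description, the log2 fold change of stiff against soft was 0.58 ± 0.269 (SE) at 2 days and 0.25 ± 0.273 (SE) at 4 days, and the latter became -0.19 without stiff replicate 1 and 0.59 without stiff replicate 2.

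Between days VCAN passed no test in the fit of all 8 libraries. Its log2 fold changes were 0.02 ± 0.271 (SE, adjusted p = 0.963) on the soft and -0.31 ± 0.270 (SE, adjusted p = 0.421) on the stiff matrix (edgeR). Without stiff 4-day replicate 1 the value on the stiff matrix was -0.76, and the change of the stiffness effect was -0.77. Without stiff 4-day replicate 2 these were 0.02 and 0.03. Each of these fits leaves 1 stiff 4-day library, so the fold changes alone are given. The direction of the VCAN result at 4 days on the stiff matrix thus rests on which of these 2 libraries is kept.

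**Figure D3:**
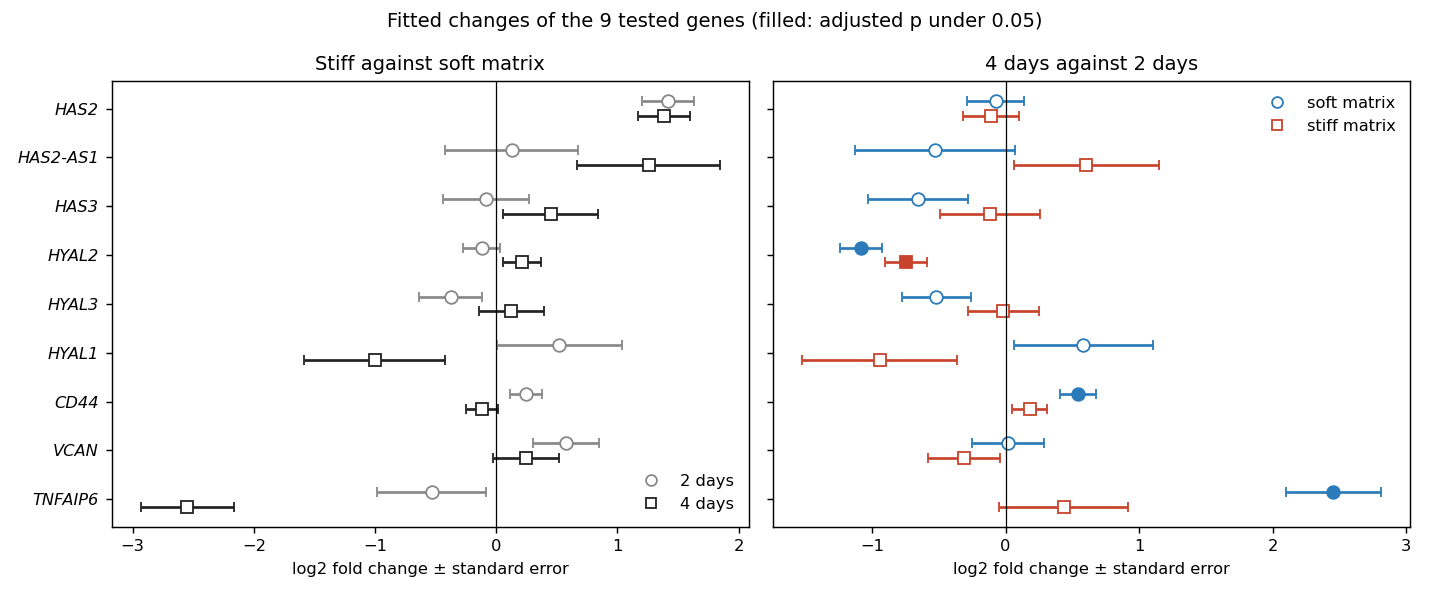
Fitted log2 fold changes with standard errors of the 9 genes with enough counts to be tested, for stiff against soft matrix at 2 and 4 days (left) and for 4 against 2 days on each matrix (right). Filled symbols mark an adjusted p under 0.05 in edgeR's test: HYAL2, CD44 and TNFAIP6 on the soft matrix and HYAL2 on the stiff matrix.

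Counted together, 9 of the 10 genes had enough reads to be tested. On the soft matrix 3 of the 9 were called between 2 and 4 days, CD44 and TNFAIP6 higher and HYAL2 lower, where 27.4% of all 14570 tested genes were called (14.1% higher and 13.3% lower). On the stiff matrix HYAL2 alone of the 9 was called, beside 27.6% of all tested genes (14.0% higher and 13.7% lower). The median log2 fold change of the 9 was -0.07 on the soft and -0.11 on the stiff matrix, against 0.02 and 0.03 over all tested genes. With 9 genes, of which TNFAIP6 and HYAL1 met the minimum for testing only with the soft 4-day libraries, neither count says anything particular about the group. Without scaling factors the split of all called genes moved from 2052 higher and 1933 lower to 1438 and 2130 on the soft matrix, and from 2034 and 1990 to 1305 and 2313 on the stiff matrix.

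Between stiff and soft matrix, no calls of the 9 genes are given, since the choice of the genes used this comparison. Over all tested genes edgeR called 0% at 2 days (411 genes at an unadjusted p under 0.05, and 31 by DESeq2 after adjustment) and 0.247% at 4 days (1010 genes at an unadjusted p under 0.05, and 180 by DESeq2 after adjustment). A change of the stiffness effect with time was called in 0 of the 9 genes by edgeR and by DESeq2, with 0% of all genes called by edgeR (284 at an unadjusted p under 0.05) and 3 by DESeq2, and 1 of the 9 (TNFAIP6) had an unadjusted p under 0.05.

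Genes around hyaluronan outside these 10 were taken from a list of 46, of which 30 had enough reads to be tested. Between 2 and 4 days 12 of the 30 were called on the soft matrix, 10 higher and 2 lower, and 13 on the stiff matrix, 10 higher and 3 lower, beside the 27.4% and 27.6% of all tested genes. The median log2 fold change of the 30 was 0.34 on the soft and 0.39 on the stiff matrix, against 0.02 and 0.03 over all tested genes. The group with the largest number called supplies the UDP-sugar precursors: 4 of 7 tested were called higher on the soft matrix, and 4 higher and 1 lower on the stiff matrix. UGDH, which makes the UDP-glucuronic acid used by the synthases, rose from 49.8 and 49.9 CPM to 89.9 and 97.5 CPM on the soft matrix (log2 fold change 0.91, adjusted p = 0.00576, edgeR). On the stiff matrix it rose from 56.9 and 53.0 CPM to 96.3 and 75.7 CPM (log2 fold change 0.65, adjusted p = 0.0188).

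The changes of the remaining precursor enzymes were smaller than 1 on the log2 scale. UGP2, which makes UDP-glucose, was called higher on both matrices (log2 fold change 0.77 on the soft and 0.85 on the stiff matrix), as was GNPNAT1, an enzyme of the hexosamine pathway to UDP-N-acetylglucosamine (0.55 and 0.54). GFPT1, which starts that pathway, was called higher on the soft matrix only (0.68), and UAP1, which completes it, on the stiff matrix only (0.64). The matrices were not shown to differ, since 0 of the 30 genes were called for a change of the stiffness effect by edgeR or DESeq2 and 0 had an unadjusted p under 0.05. GFPT2, another form of the starting enzyme, was called lower on the stiff matrix, from 72.0 and 73.0 CPM to 53.3 and 37.9 CPM (log2 fold change -0.67, adjusted p = 0.0277). UAP1 had the highest mean level of the precursor enzymes, at 108 FPKM.

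Of the other receptors, 3 of 4 tested were called higher on the soft and 2 of 4 on the stiff matrix, beside 14.1% and 14.0% of all tested genes. TLR4, an innate immune receptor that responds to hyaluronan fragments, rose from 2.71 and 3.38 CPM to 13.3 and 11.8 CPM on the soft matrix (log2 fold change 2.04, adjusted p = 0.00449) and from 1.85 and 2.01 CPM to 10.3 and 5.24 CPM on the stiff matrix (log2 fold change 2.01, adjusted p = 0.00584, edgeR). Summed leukocyte markers were 3.04 to 4.13 FPKM at 2 days and 2.75 to 3.34 FPKM at 4 days on the soft matrix, and 1.88 to 2.56 FPKM and 2.06 to 3.24 FPKM on the stiff matrix, with CD14 the main part of each sum. PTPRC, another of these 5 markers, had higher means at 4 days, 0.605 and 2.54 CPM on the soft and 0.818 and 2.41 CPM on the stiff matrix at 2 and 4 days, as had LYZ at 0.0708 and 0.183 CPM on the soft and 0.105 and 0.381 CPM on the stiff matrix. CD163 and CD3E had 0 reads in every library, and the part of such cells in the TLR4 values was not tested. LAYN, a membrane protein that binds hyaluronan, changed by 0.68 and 0.73 on the log2 scale, and both passed. TLR2, counted among these calls, had a log2 fold change of 2.51 on the soft matrix from only 1 to 18 reads per library. It met the minimum for testing only in the 2 soft 4-day libraries, at 0.653 and 0.812 CPM against 0.0419 to 0.344 CPM in the others, so it too was tested only through the condition in which it is high. HMMR, an intracellular and surface protein that binds hyaluronan, had the highest mean level of these receptors at 44.2 FPKM and was not called. LYVE1, the lymphatic hyaluronan receptor, had 0 reads in every library.

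PTX3, a pentraxin that helps to crosslink the hyaluronan matrix together with TNFAIP6, was the 1 gene called among 4 tested binding and link proteins. It rose from 134 and 136 CPM to 293 and 273 CPM on the soft matrix (log2 fold change 1.07, adjusted p = 0.00350) and from 131 and 123 CPM to 263 and 333 CPM on the stiff matrix (log2 fold change 1.23, adjusted p = 0.00242, edgeR). Of the heavy chain family, from some of whose members TNFAIP6 takes the chains it transfers, ITIH1, ITIH2 and ITIH5 had at most 2 reads in any library. ITIH3, at 3 to 14 reads per library, had log2 fold changes of -0.12 on the soft and 1.63 on the stiff matrix and was not called. Supply of these chains to TNFAIP6 was not tested. ITIH4 fell from 6.16 and 6.51 CPM to 1.68 and 1.22 CPM on the soft matrix (log2 fold change -2.13, adjusted p = 0.0022) and from 5.04 and 5.78 CPM to 1.33 and 1.79 CPM on the stiff matrix (adjusted p = 0.00362, edgeR).

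Among the proteases that cleave versican, ADAMTS1 was called higher on both matrices and ADAMTS9 lower on both. ADAMTS1 rose from 30.0 and 28.9 CPM to 67.5 and 73.3 CPM on the soft matrix (log2 fold change 1.26, adjusted p = 0.00165) and from 52.2 and 52.1 CPM to 112 and 98.5 CPM on the stiff matrix (log2 fold change 1.01, adjusted p = 0.00281, edgeR). ADAMTS9 changed by -1.13 and -2.22 and ADAMTS5 by 1.84 on the stiff matrix (log2 fold changes), at no more than 2.76 and 2.41 CPM in any library. Of the proteins that link CD44 to the actin cytoskeleton, EZR (ezrin) was called higher on both matrices (0.51 and 0.52), while MSN (moesin), with the highest mean level of the 3 at 356 FPKM, was not called. Of the other breakdown enzymes 0 of 5 tested were called by edgeR on either matrix, with 2 on the soft and 1 on the stiff matrix at an unadjusted p under 0.05.

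Between stiff and soft matrix edgeR called 0 of these 30 genes at either day, with 2 at 2 days and 6 at 4 days at an unadjusted p under 0.05, and DESeq2 called 1 at each day. Leaving out 1 library moved the counts of the 30 genes widely: between 2 and 4 days they lay between 2 and 19 on the soft matrix and between 2 and 20 on the stiff matrix, with the lowest counts without soft 2-day replicate 1 and without stiff 2-day replicate 2. The share of all tested genes called in the same fits moved between 2.32% and 52.9% on the soft and between 3.14% and 52.1% on the stiff matrix.

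**Figure D4:**
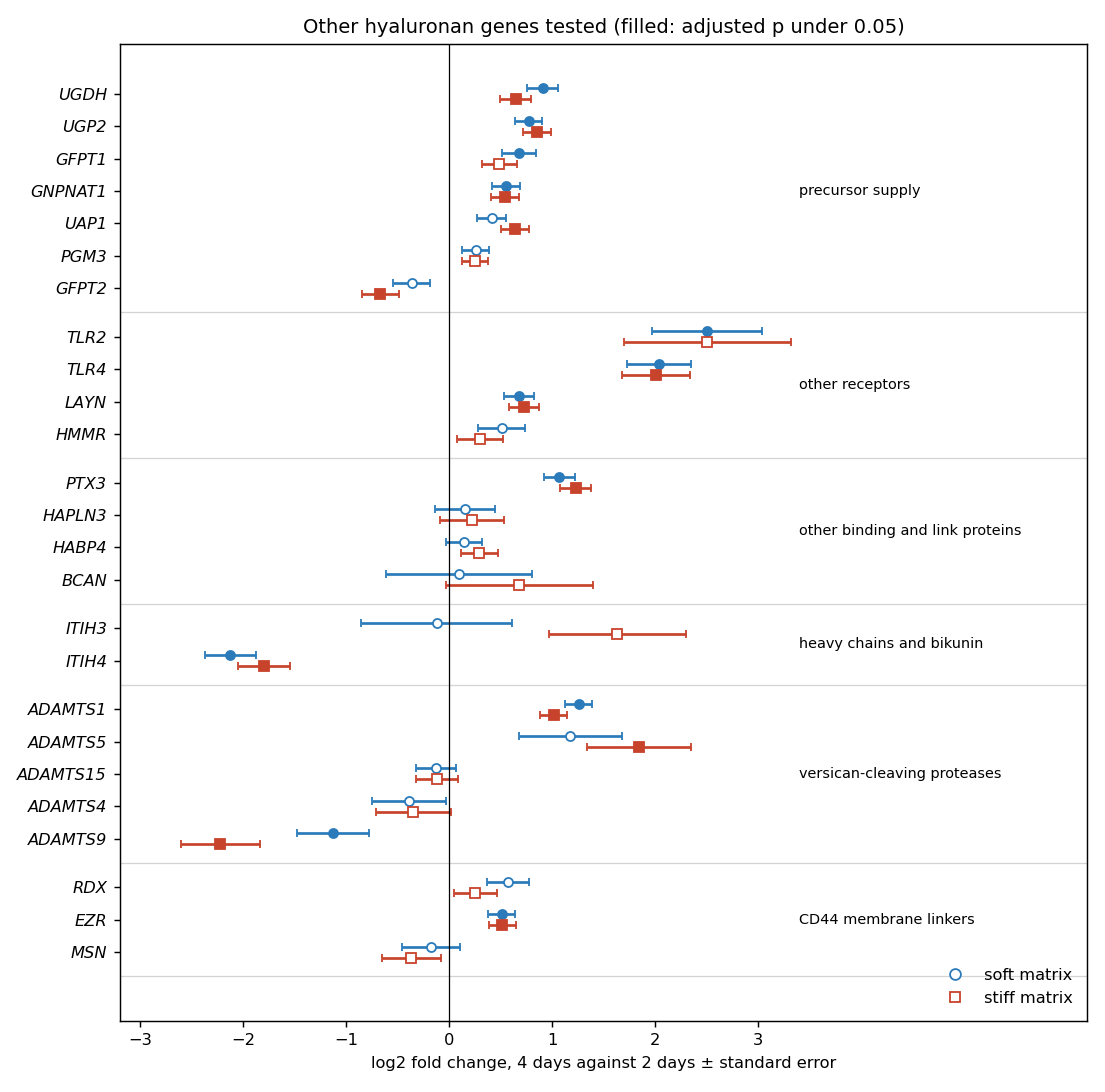
Fitted log2 fold changes of 4 against 2 days, with standard errors, of the tested genes around hyaluronan, grouped by role, with the other breakdown enzymes not drawn. Blue circles are the soft and red squares the stiff matrix, and filled symbols mark an adjusted p under 0.05 in edgeR's test. TLR4, PTX3 and ADAMTS1 lie to the right of 0 and ITIH4 and ADAMTS9 to the left on both matrices.

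The genes most like HAS2, VCAN and CD44 in their pattern over the 8 libraries were found by the root mean square difference of centred log2 CPM, over the 12160 genes whose log2 CPM averaged at least 1. Nearest to HAS2 were GRPR (0.384), PID1 (0.390) and ZNF804A (0.396), against an SD of HAS2 itself of 0.762. Nearest to VCAN were ST3GAL1 (0.118), GEMIN5 (0.118) and APC (0.123), at a VCAN SD of 0.348, and nearest to CD44 were DNAJC21 (0.0484), GHITM (0.0654) and FBXO7 (0.0686), at a CD44 SD of 0.223. GRPR had 2.18 and 2.48 CPM in the soft and 4.20 and 3.06 CPM in the stiff libraries at 2 days, and 1.77 and 2.16 CPM and 4.27 and 2.36 CPM at 4 days. The libraries are shared by all these genes, and these distances are given without a test.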

How the data were processed

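RNA-seq of LX-2 cells was analysed from 2 deposited tables, with 2 libraries in each of 4 conditions. The authors trimmed reads with Trim Galore, mapped them to hg19 with STAR 2.7.1a and counted reads per gene with HTSeq, giving the deposited counts. The gene annotation and strand setting are not given in the sources used here. The authors also deposited FPKM, which in 12138 genes compared differ between libraries by the ratio of median-of-ratios size factors.

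Of 25369 genes, 14570 passed edgeR's filterByExpr. Counts were scaled by TMM (factors 0.870 to 1.08), and all 8 libraries entered 1 quasi-likelihood fit with a mean per condition (edgeR 4.0.16, R 4.3.3), so that the conditions share 1 estimate of the spread. A gene was called where its p, adjusted over all tested genes by Benjamini-Hochberg, was under 0.05. An SE is the absolute log2 fold change over the root of its F statistic. With totals of 19955975 to 27263935 counts, a gene near the filter's 0.443 CPM rests on about 10 reads, so counting error is large there. P-values rest on the spread between replicates over all 4 conditions, so a p on the soft matrix also reflects the stiff libraries. The study describes the 2 libraries of a condition as independent experiments.

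The 10 genes, the 46 further hyaluronan genes and the markers were chosen with earlier results of these data known. All 10 genes are named, with those of the 46 called in any comparison, the most abundant of each group and the 3 genes most like HAS2, VCAN and CD44. One gene under this rule is not reported here. LYVE1, ITIH1, ITIH2, ITIH3 and ITIH5 were named after their values were seen. Coordinates are from GENCODE v44lift37 on GRCh37, promoters from RefSeq on GRCh38.p14. Alternatives were DESeq2 1.42.0, limma 3.58.1 on log2(FPKM + 1) and log2(FPKM + 0.1), other scalings and filters, fits of 2 conditions, the replicate number as a block, and leaving out each library.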

Additional observations from a re-analysis of the deposited data

How the results depend on the processing

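Sign changes of the log2 fold changes were counted for the 9 tested genes over all comparisons, stiff against soft among them. They numbered 6 under settings that kept all libraries of a comparison and 22 when 1 library was left out. Moves across the threshold are not counted, since they would include calls of stiff against soft. With only 2 libraries per condition, low counts (HAS1, HAS2-AS1, HYAL1 and TNFAIP6) and the spread of the stiff 4-day libraries limit every value, and the cause of the changes below was not tested. HYAL2, CD44 and TNFAIP6 on the soft matrix kept their direction in every setting in which they were fitted, and TNFAIP6 could not be fitted with at least 10 counts in every library. The choice of the 9 genes used the comparison of stiff and soft matrix, so their calls there are not given. Between the matrices, DESeq2 called 1 of the 30 other genes at each day, beside 0.213% of all tested genes at 2 days and 1.24% at 4 days. A fit of the 2-day libraries alone called 2 of the 30, beside 4.67% of all tested genes. In fits of the 2 conditions compared, 0 of the 9 and 0 of the 30 genes were called between days on the stiff matrix and 19 of the 30 on the soft matrix, where 0% and 50.7% of all tested genes were called. VCAN between days on the soft matrix changed sign to -0.0568 without scaling factors, -0.00655 with at least 10 counts, -0.00219 in limma on log2(FPKM + 1) with or without a filter and -0.00836 on log2(FPKM + 0.1). HYAL3 between matrices at 4 days became -0.00671 without scaling factors, a setting that moved the median log2 fold change of all genes between days on the stiff matrix from 0.0276 to -0.104.

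Same-numbered libraries did not deviate together (correlations of -0.49 to 0.0773), so the replicate number as a block is an alternative only. The replicate block moved the CD44 call on the soft matrix to an adjusted p of 0.058 in edgeR and all called genes from 3985 to 2626 there, and changed no other call of the 9. The correlation of -0.49 between the matrices at 4 days led to a crossed pairing, chosen after seeing the data, which called 4542 genes on the soft matrix.

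Leaving out 1 library at a time, 0 to 4 (soft) and 0 to 3 (stiff) of the 9 were called between days. In these fits, calls of the 9 between matrices or for the change of the stiffness effect are not given. The genes were chosen with the higher HAS2 and VCAN expression on the stiff matrix already known. For the 30 other genes the ranges were 2 to 19 (soft) and 2 to 20 (stiff) between days. They were 0 to 1 (2 days) and 0 to 10 (4 days) between matrices, and 0 to 6 for the change of the stiffness effect. Each of these fits leaves 1 library in a condition, so the counts describe only how far they depend on single libraries. Log2 fold changes that changed sign ranged, between days on the soft matrix, from -1.47 to 0.0413 for HAS2-AS1 and -0.18 to 0.16 for VCAN. On the stiff matrix they ranged from -0.45 to 0.15 for HAS2, -0.36 to 0.14 for HAS3, -0.36 to 0.26 for HYAL3 and -0.76 to 0.0204 for VCAN. Between matrices at 2 days the ranges were -0.24 to 0.42 for HAS2-AS1, -0.36 to 0.25 for HAS3 and -0.24 to 0.0152 for HYAL2, and at 4 days -0.20 to 0.42 for HYAL3 and -0.19 to 0.59 for VCAN. The change of the stiffness effect ranged from -0.36 to 0.25 for HAS2 and -0.77 to 0.0272 for VCAN.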
